A study of Mus musculus with 16 samples.

Results

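The transcripts of 7 genes that build growth cones or act after axon injury were followed in cultured mouse sensory neurons. The genes are Csf1, Cap2, Gap43, Marcks, Basp1, Crmp1 and Dpysl3. They were taken by name, 1 identifier each, from a table of 55356 Ensembl identifiers, and all 7 were among the 19156 genes with enough counts to test. The neurons came from dorsal root ganglia of CD1 mouse embryos and were kept in culture for 6 days. The medium held nerve growth factor, which keeps them alive, and fluorodeoxyuridine with uridine, against cells that divide. There were 4 groups of 4 samples. The inhibitor plus nocodazole group (DLKi_Noc) received 500 nM GNE3511, which inhibits DLK (dual leucine zipper kinase), and 15 min later 200 nM nocodazole for 16 h. The nocodazole group (DMSO_Noc) received the solvent DMSO and then nocodazole at that dose. The inhibitor group (DLKi_DMSO) received GNE3511 and then DMSO, and the DMSO group (DMSO_DMSO) received DMSO in both steps. The labels name no clone, animal or culture for a sample, and the p-values cover only the spread among these samples, possibly a technical one. With a single inhibitor at a single dose, an effect through DLK cannot be told apart from an effect on another target.

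A growth cone is the moving tip of an axon, where actin filaments and microtubules are remodelled as the axon extends. Embryonic sensory neurons express its proteins strongly while they grow, and adult ones turn several of them on again after an axon is cut. DLK is a kinase of the axon that reports damage through JNK to the nucleus, and nocodazole depolymerises microtubules by binding tubulin. The comparisons ask what loss of microtubules does to transcripts and how far DLK inhibition alters that.

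Each library held between 30987962 and 43321421 counts. Neuronal markers summed to between 12500 and 17100 CPM over the 16 libraries (CPM, counts divided by the normalised size of their library), with 10 of 10 detected in each group. With nocodazole 4 of these 10 were called lower than with DMSO and 1 higher, where 19.0% of all genes were called lower and 18.6% higher. Tubb3, a neuronal tubulin gene, averaged 1010 ± 203 CPM with nocodazole against 3060 ± 202 CPM with DMSO (SD, n = 4 each). Of the markers of other cells, the endothelial list summed to between 20.4 and 28.5 CPM, the macrophage list summed to between 1.90 and 5.89 CPM, and those of dividing cells and of pericytes to 6.39 CPM or less. The fibroblast list summed to between 34.1 and 79.7 CPM, mostly Thy1, which neurons also express. Some of its other members are described beside Csf1. The glial list was led by Ngfr, which these neurons also express. Replicate 1 of the inhibitor plus nocodazole group stood apart from the other replicates of its group. It scored -10.4 on the first principal component, against 28.4 to 31.4 for its replicates 2 to 4, and its mitochondrial share was 1.71% against 0.865% to 1.09% in those. Where leaving it out changed a call, the value without it is given.

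The 7 genes spanned the range from scarce to very abundant. Per kilobase of exon, Gap43 averaged 651 ± 23.8 CPM and Dpysl3 629 ± 20.8 CPM in the DMSO group (SD, n = 4), levels that differed by less than their spread. Basp1 followed at 314 ± 18.1, Crmp1 at 108 ± 6.35 and Marcks at 43.4 ± 1.52 CPM per kilobase. Cap2 stood at 0.83 ± 0.0886 and Csf1 at 0.778 ± 0.0888 CPM per kilobase, again within their spread of each other. Ranked on that scale among 19084 genes, Gap43 lay at percentile 99.9 and Csf1 at percentile 34.0. All further levels are in CPM without division by length and are compared within a gene only.

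Csf1 (ENSMUSG00000014599.11) encodes colony stimulating factor 1, a secreted ligand of the receptor CSF1R on macrophages and microglia, and injured sensory neurons are known to produce it. Of the 7 genes it changed most. Its level was 5.07, 4.07, 4.56 and 3.90 CPM in inhibitor plus nocodazole replicates 1 to 4, and 10.6, 7.99, 13.4 and 14.4 CPM in the nocodazole replicates. It was 3.80, 4.94, 4.04 and 3.72 CPM in the inhibitor replicates, and 3.64, 3.92, 4.75 and 4.13 CPM in the DMSO replicates. All 4 nocodazole libraries lay above every library of the other groups, and those other 12 libraries overlapped. Csf1 averaged 11.6 ± 2.88 CPM with nocodazole and 4.11 ± 0.469 CPM with DMSO (SD, n = 4 each). This was 2.81-fold, or 1.49 ± 0.166 on the log2 scale with its SE (edgeR quasi-likelihood test, adjusted p = 4.07e-06). Under the inhibitor, nocodazole moved Csf1 by 0.10 on the log2 scale (95% interval -0.26 to 0.45, edgeR adjusted p = 0.999). In nocodazole-treated neurons the inhibitor lowered it, with a log2 change of -1.39 ± 0.165 (edgeR adjusted p = 7.39e-06), to 4.40 ± 0.526 CPM, against 11.6 ± 2.88 CPM with nocodazole alone. Without nocodazole the inhibitor gave 4.13 ± 0.560 CPM against 4.11 ± 0.469 CPM for DMSO, a log2 change of 0.00 with an interval of -0.35 to 0.36. Subtracting the nocodazole change without inhibitor from the one with it (the interaction) gave -1.40 ± 0.235 (edgeR adjusted p = 0.000846), and Csf1 was the only member that passed it. Over the 19156 genes tested, 18.7% passed the interaction (9.52% higher and 9.20% lower), so a count of 1 of 7 is near the background. Without inhibitor plus nocodazole replicate 1 the interaction called 4 of the 7 genes (2 higher, 2 lower) and 5218 of 19479 genes tested, against 3587 with all libraries, and without inhibitor replicate 1 it called 2 of the 7. Of the order of levels (nocodazole, inhibitor plus nocodazole, inhibitor, DMSO), only the step below nocodazole exceeded the spread between libraries. In whole cultures, more RNA per cell and more cells of a type cannot be told apart.

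Some markers of macrophages and of fibroblasts were highest with nocodazole alone, like Csf1 and Cap2, and others were not. The sum of 10 macrophage markers was 2.06 to 3.22 CPM with inhibitor plus nocodazole, 4.33 to 5.89 CPM with nocodazole, 1.90 to 3.03 CPM with inhibitor and 2.52 to 2.95 CPM with DMSO. That rise lay mainly in Cd68, a lysosomal protein gene, at 2.16 ± 0.437 CPM with nocodazole against 0.427 ± 0.169 CPM with DMSO (SD, n = 4 each). The 10 markers differed in level. Cd68, Csf1r and Aif1 had up to 98, 45 and 53 counts in a library, while Tyrobp had at most 2, Cx3cr1 at most 3 and Adgre1 at most 7. Aif1 averaged 0.850 ± 0.164 CPM with inhibitor plus nocodazole, 1.28 ± 0.241 CPM with nocodazole, 0.835 ± 0.156 CPM with inhibitor and 1.08 ± 0.150 CPM with DMSO (SD, n = 4 each). Cx3cr1 and Adgre1 had no count in the inhibitor group, nor Cx3cr1 in the inhibitor plus nocodazole group. The receptor gene Csf1r averaged 0.660 ± 0.0638 CPM with inhibitor plus nocodazole, 1.07 ± 0.320 CPM with nocodazole, 0.671 ± 0.276 CPM with inhibitor and 0.689 ± 0.305 CPM with DMSO. Csf1r was not called with nocodazole. C1qa, C1qb, C1qc and Ptprc had lower means with nocodazole than with DMSO, C1qb at 0.135 ± 0.0588 against 0.203 ± 0.0962 CPM. Of 3 macrophage markers with enough counts to test, 1 was higher with nocodazole and 2 were lower when the inhibitor was added, with median log2 changes of 0.61 and -0.68. Of 9 fibroblast markers tested, 1 was higher with nocodazole (median log2 change 0.52), and 3 were lower when the inhibitor was added (median -1.10). Over all genes 18.6% were called higher with nocodazole, a share that 1 of 9 did not exceed. When the inhibitor was added, 16.2% of all genes were called lower. The median of the fibroblast markers in the interaction was -1.32, with no call by edgeR at an adjusted p below 0.05. Fbln1 and Thy1 had lower means with nocodazole than with DMSO, Thy1 at 47.9 ± 14.3 against 56.7 ± 9.83 CPM. Dcn, a matrix proteoglycan gene of fibroblasts, averaged 0.680 ± 0.324 CPM with inhibitor plus nocodazole, 3.27 ± 1.57 CPM with nocodazole, 0.541 ± 0.271 CPM with inhibitor and 1.06 ± 0.198 CPM with DMSO. Malat1, a nuclear RNA, was also higher with nocodazole, at 11220 to 12780 CPM against 6161 to 8398 CPM with DMSO. The part of these markers and of Malat1 in the Csf1 and Cap2 results was not tested. Of 13 genes in a list of CSF1 signalling, 6 had enough counts to test, and Csf1 was the 1 called with nocodazole (18.6% of all genes were called higher and 19.0% lower). In nocodazole-treated neurons the inhibitor lowered 2 of the 6, Csf1 among them, and raised 1. The raised gene was Adam17, whose protease sheds membrane-bound CSF1, at 0.34 ± 0.103 on the log2 scale (edgeR adjusted p = 0.0161).

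Cap2 (ENSMUSG00000021373.17) encodes a cyclase-associated protein that binds actin monomers and helps to recycle actin from filaments. Like Csf1, it was highest with nocodazole alone. The level was 5.29, 3.04, 2.82 and 2.35 CPM in inhibitor plus nocodazole replicates 1 to 4, and 6.76, 7.39, 5.23 and 6.99 CPM in the nocodazole replicates. In the inhibitor replicates it was 1.85, 4.13, 2.97 and 3.42 CPM, and in the DMSO replicates 3.08, 3.84, 3.69 and 3.20 CPM. Nocodazole libraries lay above all those of the inhibitor and DMSO groups, but inhibitor plus nocodazole replicate 1 reached into their range. Cap2 averaged 6.59 ± 0.945 CPM with nocodazole and 3.45 ± 0.368 CPM with DMSO (SD, n = 4 each), a log2 change of 0.93 ± 0.240 (edgeR adjusted p = 0.00592). With both agents it averaged 3.37 ± 1.31 CPM, a log2 change of -0.96 ± 0.240 against nocodazole alone (edgeR adjusted p = 0.00527). Under the inhibitor, nocodazole gave 0.13 on the log2 scale (interval -0.38 to 0.65). The interaction was -0.80 ± 0.342 and missed the threshold (edgeR adjusted p = 0.114). Without inhibitor plus nocodazole replicate 1 it was -1.11 (edgeR adjusted p = 0.00977), and without inhibitor replicate 1 it was -0.97 (edgeR adjusted p = 0.0399). Counts of Cap2 ran from 67 to 247 per library and those of Csf1 from 117 to 443, and their intervals were the widest of the 7 genes.

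**Figure D1:**
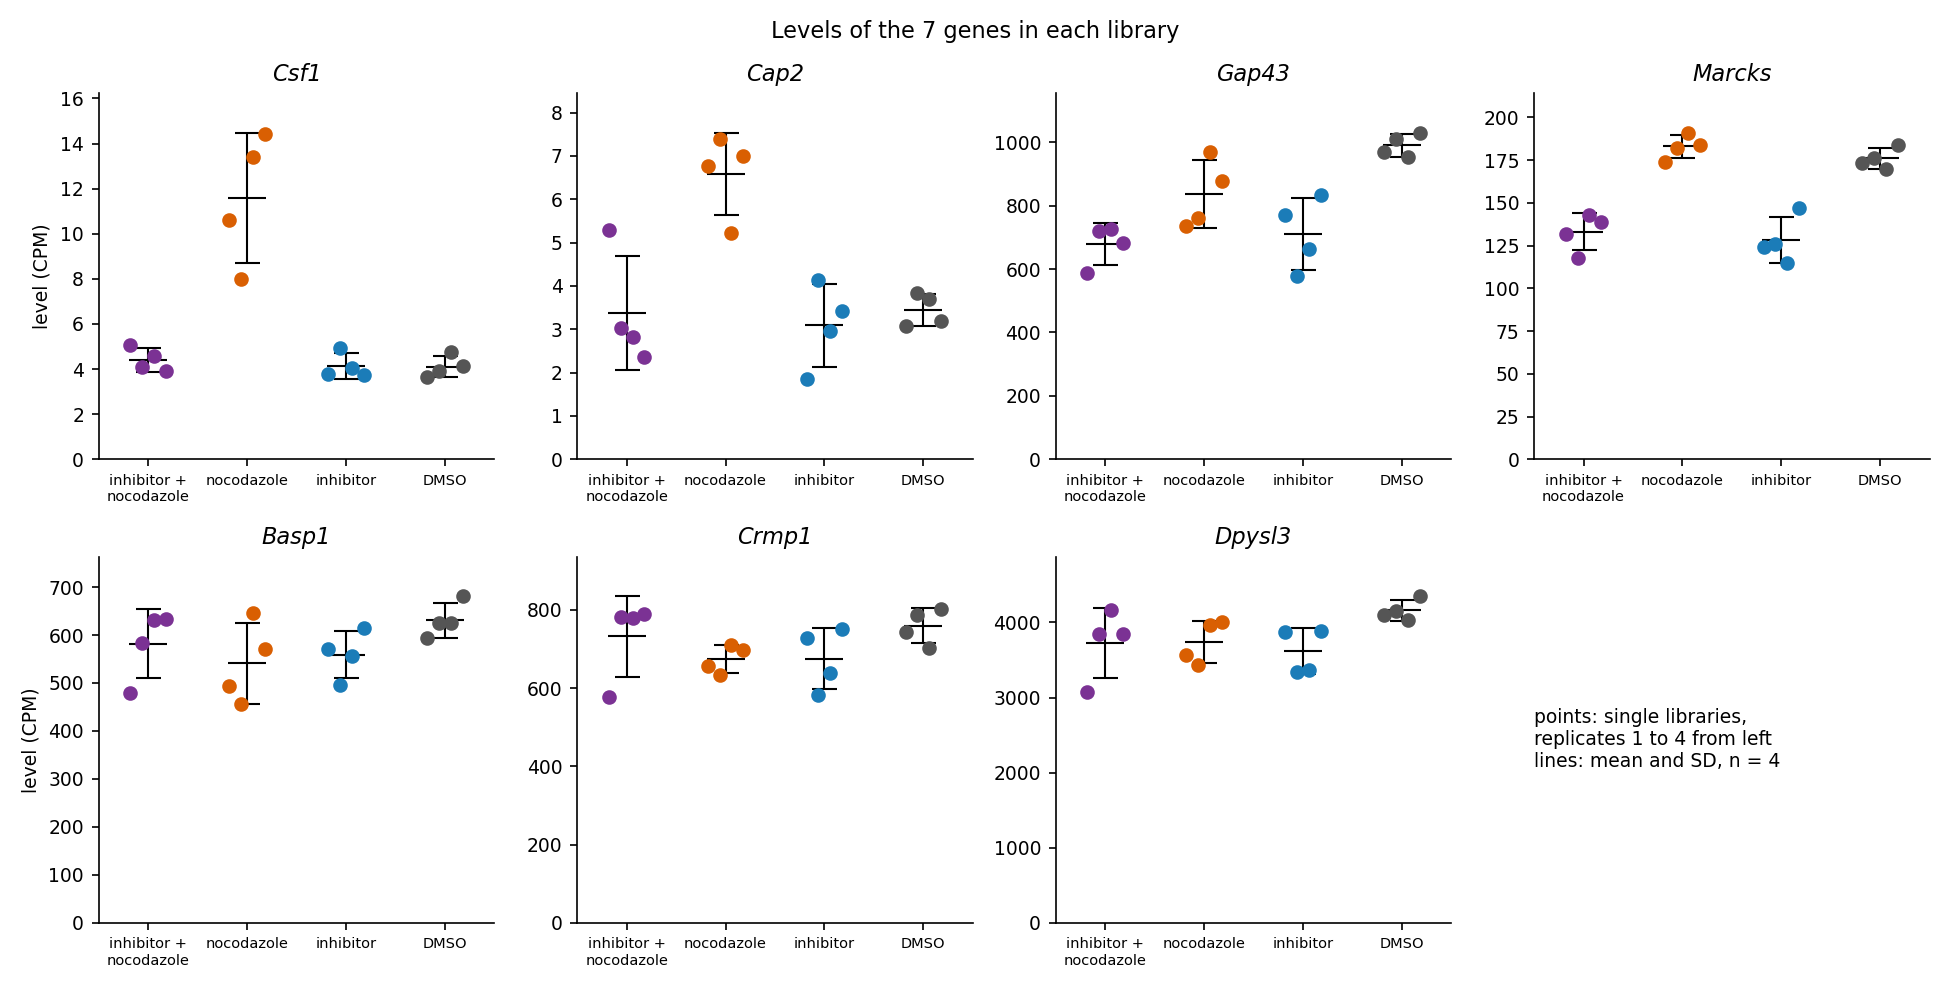
Level of each gene (vertical axis, CPM, starting at 0) in every library of the 4 groups, with the mean and SD of 4 libraries as lines. Csf1 (7.99 to 14.4 CPM) and Cap2 (5.23 to 7.39 CPM) were highest with nocodazole alone, while Marcks was low in both inhibitor groups (115 to 147 CPM).

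Since Csf1 and Cap2 rose in the same group, the stretch of 250 bases before to 50 bases after their annotated start was read. It came from a RefSeq promoter table (GRCm38.p6), from which entries of 4 of the 7 genes were taken. Basp1, which was called in none of the comparisons, is set beside them, and Crmp1 has an entry for each of 2 starts. Gap43, Marcks and Dpysl3 are named only. Dpysl3 was left out when entries were selected, and Gap43 and Marcks had no entry of that length. Motif matches were not listed for these genes. Capitals mark the GC box GGGCGG, a site of SP1-type factors, in the 5′ to 3′ direction of the gene.
Csf1 (chr3:107760420-107760719, minus strand): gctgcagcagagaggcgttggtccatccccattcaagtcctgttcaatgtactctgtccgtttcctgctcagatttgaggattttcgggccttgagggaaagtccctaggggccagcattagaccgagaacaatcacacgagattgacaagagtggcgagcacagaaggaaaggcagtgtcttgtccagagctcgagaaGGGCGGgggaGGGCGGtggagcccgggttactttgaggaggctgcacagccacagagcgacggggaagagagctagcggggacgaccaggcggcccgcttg
Cap2 (chr13:46501653-46501952, plus strand): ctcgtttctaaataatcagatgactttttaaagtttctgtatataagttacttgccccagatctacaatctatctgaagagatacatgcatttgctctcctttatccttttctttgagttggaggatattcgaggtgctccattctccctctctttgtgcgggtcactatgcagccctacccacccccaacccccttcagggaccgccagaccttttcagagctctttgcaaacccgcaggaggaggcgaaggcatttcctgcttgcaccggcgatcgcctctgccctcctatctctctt
Basp1 (chr15:25413715-25414014, minus strand): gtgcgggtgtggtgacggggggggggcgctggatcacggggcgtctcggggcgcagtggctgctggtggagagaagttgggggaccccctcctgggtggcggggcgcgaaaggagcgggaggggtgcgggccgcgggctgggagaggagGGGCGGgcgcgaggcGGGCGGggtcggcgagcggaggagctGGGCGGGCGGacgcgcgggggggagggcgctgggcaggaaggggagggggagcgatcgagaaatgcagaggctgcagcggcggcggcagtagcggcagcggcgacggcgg
The Csf1 window held 2 GC boxes, starting 51 and 41 bases before the start, and the Basp1 window held 4, of which those at 60 and 56 bases overlap. The Cap2 window held none, and 35.7% of 32851 promoters of the same length held at least 1. GC content was 58.7% for Csf1, 48.3% for Cap2 and 78.0% for Basp1, with a median of 52.7% over all promoters. Searched on both strands, the AP-1 motif TGANTCA, the cAMP response element TGACGTCA and the C/EBP-ATF motif TGATGNAA had no match in any of the windows of these 3 genes or of Crmp1. Of all promoters, 7.81%, 1.79% and 3.97% held these 3 motifs, in that order. This says only that the letters are not in these windows, and the authors' build is GRCm39, so the coordinates belong to the promoter table alone.

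Gap43, Marcks and Basp1 encode membrane-bound proteins of the growth cone that bind the lipid PIP2 or calmodulin and are substrates of protein kinase C. Among these, Gap43 and Marcks were lower with the inhibitor whether or not nocodazole was present, and nocodazole alone called none of them. Gap43 (ENSMUSG00000047261.10), the classical growth-associated protein gene, had 586, 720, 726 and 683 CPM in inhibitor plus nocodazole replicates 1 to 4, and 736, 762, 968 and 878 CPM in the nocodazole replicates. It had 771, 577, 663 and 834 CPM in the inhibitor replicates, and 968, 1010, 953 and 1030 CPM in the DMSO replicates. Both inhibitor groups lay wholly below DMSO, and the inhibitor plus nocodazole group lay wholly below nocodazole, by a gap of 726 to 736 CPM at the nearest libraries. The inhibitor group averaged 711 ± 114 CPM against 991 ± 36.2 CPM for DMSO (SD, n = 4 each), a log2 change of -0.48 ± 0.108 (edgeR adjusted p = 0.00917). With both agents Gap43 averaged 679 ± 64.9 CPM, a log2 change of -0.55 ± 0.108 against DMSO (edgeR adjusted p = 0.00267) and of -0.30 ± 0.108 against nocodazole (edgeR adjusted p = 0.041). That last call was lost when any 1 of 7 libraries was left out: nocodazole replicate 3 or 4, inhibitor plus nocodazole replicate 1 or 4, or DMSO replicate 2, 3 or 4. It was -0.23 without nocodazole replicate 3 (edgeR adjusted p = 0.136) and -0.23 without inhibitor plus nocodazole replicate 1 (edgeR adjusted p = 0.105). Nocodazole alone gave 836 ± 108 CPM, a log2 change of -0.25 ± 0.108 against DMSO that did not pass (interval -0.47 to -0.02, edgeR adjusted p = 0.0846). It passed without nocodazole replicate 3, at -0.34 (edgeR adjusted p = 0.0276), and without inhibitor replicate 2, at -0.25 (edgeR adjusted p = 0.0491). In order, DMSO was highest, then nocodazole, inhibitor and inhibitor plus nocodazole, and neighbours in that order overlapped.

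Marcks (ENSMUSG00000069662.6) encodes a protein that cross-links actin and holds PIP2 at the membrane until protein kinase C releases it. Its replicates were tight, with 132, 118, 143 and 139 CPM in inhibitor plus nocodazole replicates 1 to 4, and 174, 182, 191 and 184 CPM in the nocodazole replicates. The inhibitor replicates had 124, 126, 115 and 147 CPM, and the DMSO replicates had 173, 176, 170 and 184 CPM. All 8 libraries with inhibitor lay below all 8 without it. In nocodazole-treated neurons the inhibitor gave 133 ± 10.9 CPM against 183 ± 6.65 CPM, which was -0.46 ± 0.0707 on the log2 scale (adjusted p = 0.000102 in edgeR). Without nocodazole it gave 128 ± 13.4 CPM against 176 ± 6.17 CPM, or -0.45 ± 0.0707 on the log2 scale (adjusted p = 0.000756 in edgeR). These 2 changes share no library, and their difference was 0.00 with an interval of -0.22 to 0.21. Nocodazole moved Marcks by 0.06 without inhibitor (interval -0.09 to 0.21) and by 0.05 with it (interval -0.10 to 0.20).

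Basp1 (ENSMUSG00000045763.9) encodes a PIP2-binding protein of the inner membrane, related in function to GAP-43. The values in inhibitor plus nocodazole replicates 1 to 4 were 480, 584, 631 and 634 CPM, and those in the nocodazole replicates 493, 456, 646 and 570 CPM. Inhibitor replicates had 570, 495, 556 and 615 CPM, and DMSO replicates had 594, 625, 625 and 681 CPM. All 4 groups overlapped. Its largest log2 change between groups was -0.22 ± 0.106, for nocodazole against DMSO (edgeR adjusted p = 0.111), which became -0.34 without nocodazole replicate 3 (edgeR adjusted p = 0.0198). The inhibitor change of Basp1 was -0.18 without nocodazole (interval -0.40 to 0.05) and 0.10 with it (interval -0.12 to 0.33).

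Signs of RNA quality differed between libraries along with Gap43 within each group given inhibitor, nocodazole or both. Inhibitor replicates 2 and 3, with the lowest Gap43 of their group, had 11570 and 11040 CPM of Malat1 and mitochondrial shares of 1.39% and 1.78%. Replicates 1 and 4 of that group had 9603 and 8796 CPM of Malat1 and shares of 1.08% and 1.06%. Nocodazole replicates 1 and 2, with 736 and 762 CPM of Gap43, had mitochondrial shares of 1.36% and 1.5%. Replicates 3 and 4 of that group, with 968 and 878 CPM, had 0.875% and 0.977%. Inhibitor plus nocodazole replicate 1, with 586 CPM of Gap43, had a share of 1.71%. Replicates 2 to 4 of that group, with 683 to 726 CPM, had 0.865% to 1.09%. The nocodazole libraries had 11220 to 12780 CPM of Malat1, and the inhibitor plus nocodazole libraries 8957 to 11370 CPM. With nocodazole alone Gap43 averaged 836 ± 108 CPM and Marcks 183 ± 6.65 CPM, both means above those of the inhibitor groups. In the DMSO libraries Malat1 was between 6161 and 8398 CPM and the mitochondrial share between 0.765% and 1.07%. A share over 1.3% occurred in inhibitor replicates 2 and 3, nocodazole replicates 1 and 2 and inhibitor plus nocodazole replicate 1, and in no DMSO library. Without these 5 libraries, the inhibitor change in the absence of nocodazole was -0.31 for Gap43 (edgeR adjusted p = 0.00971) and -0.37 for Marcks (edgeR adjusted p = 0.0178). With all libraries these changes were -0.48 and -0.45. In nocodazole-treated neurons the same fit gave -0.38 for Gap43 (edgeR adjusted p = 0.000276), against -0.30 with all libraries. For Marcks it gave -0.49 (edgeR adjusted p = 0.000483), against -0.46. The part of Malat1 in these results was not tested. The sample number of the deposited columns was also fitted as a covariate. The inhibitor change of Gap43 without nocodazole was then -0.41 and no longer passed (edgeR adjusted p = 0.0547). In nocodazole-treated neurons it was -0.34 and passed (edgeR adjusted p = 0.0241).

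Genes for regulators of these proteins were mostly lower where nocodazole acted alone. In a list of 20 genes (protein kinase C isoforms, calmodulins, calcineurin, PIP2-making kinases, lipid-attaching enzymes and ELAVL proteins that bind neuronal mRNAs), nocodazole raised 2 and lowered 11 (18.6% and 19.0% of all genes), with a median log2 change of -0.20 against 0.01 over all genes. Elavl4, whose product HuD binds and stabilises Gap43 mRNA, fell by 1.31 ± 0.147 on the log2 scale (adjusted p = 4.58e-06 in edgeR), and Elavl2 by 0.67. Elavl4 is also on the list of neuronal markers. Nmt2, an enzyme that attaches myristate to proteins, and Pip5k1a, which makes PIP2, rose by 0.41 and 0.33. The inhibitor raised 5 of the 20 and lowered 1 in nocodazole-treated neurons, with Elavl4 at 1.53 ± 0.148 (edgeR adjusted p = 9.37e-07). Over all genes the inhibitor then raised 17.7% and lowered 16.2%. Without nocodazole it lowered 2 of the 20, where 7.24% of all genes were called lower, namely Marcksl1, the paralog of Marcks, at -0.45 ± 0.126 (edgeR adjusted p = 0.0269) and Prkca at -0.36.

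Crmp1 and Dpysl3 belong to the collapsin response mediator proteins, which bind tubulin and actin and relay semaphorin signals to the cytoskeleton. Neither passed the test in any comparison. Crmp1 (ENSMUSG00000029121.17) had 578, 782, 778 and 790 CPM in inhibitor plus nocodazole replicates 1 to 4, and 656, 633, 711 and 697 CPM in the nocodazole replicates. It had 727, 583, 638 and 752 CPM in the inhibitor replicates, and 744, 786, 703 and 803 CPM in the DMSO replicates. Replicate 1 of the inhibitor plus nocodazole group lay far below the other 3 of its group. Nocodazole moved Crmp1 by -0.17 (interval -0.38 to 0.03) without inhibitor and by 0.12 (interval -0.09 to 0.32) with it. The interaction was 0.29 ± 0.138 (edgeR adjusted p = 0.154). Without that replicate 1 it was 0.39 (edgeR adjusted p = 0.0137), and the inhibitor change in nocodazole-treated neurons was 0.22 (edgeR adjusted p = 0.0375).

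Dpysl3 (ENSMUSG00000024501.21), which encodes CRMP4, had the highest counts of the 7 genes, 107530 to 174846 per library. It had 3070, 3850, 4170 and 3840 CPM in inhibitor plus nocodazole replicates 1 to 4, and 3560, 3430, 3960 and 4000 CPM in the nocodazole replicates. The inhibitor replicates had 3870, 3340, 3370 and 3890 CPM, and the DMSO replicates 4100, 4150, 4030 and 4350 CPM. DMSO libraries lay above all those of the nocodazole and inhibitor groups, but the log2 changes of -0.15 ± 0.0891 with nocodazole (edgeR adjusted p = 0.189) and -0.20 ± 0.0891 with inhibitor (edgeR adjusted p = 0.145) did not pass. The intervals of these changes reached from -0.34 to 0.03 and from -0.39 to -0.01. Without inhibitor plus nocodazole replicate 1 the interaction of Dpysl3 was 0.28 (edgeR adjusted p = 0.048), against 0.20 with all libraries (edgeR adjusted p = 0.284).

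Of the 5 genes of the CRMP family, nocodazole lowered 1, a share near the 19.0% of all genes called lower. That gene was Dpysl4, at -0.47 ± 0.0975 (edgeR adjusted p = 0.00127), and Dpysl2 and Dpysl5 had log2 changes of -0.12 and -0.18. With the inhibitor Dpysl4 missed the threshold without nocodazole, at -0.30 (edgeR adjusted p = 0.0503), and had -0.40 with both agents against DMSO (edgeR adjusted p = 0.0105). Among 12 kinases and partners of these proteins, nocodazole raised 2 and lowered 6, where 18.6% of all genes were called higher and 19.0% lower. The count raised is near that background. The semaphorin co-receptor gene Plxna2 had -1.16 ± 0.203 (edgeR adjusted p = 0.000296), and Cdk5r1, which activates the kinase CDK5 that phosphorylates CRMPs, had -0.60 ± 0.0581 (edgeR adjusted p = 1.03e-06). Plxna1 rose by 0.64 and the Src-family kinase gene Fyn by 0.35. Without nocodazole the inhibitor raised 1 and lowered 2 of the 12 (5.78% and 7.24% of all genes). It raised Plxna1 by 0.90 and lowered the semaphorin receptor genes Nrp1, at -0.95 ± 0.153 (edgeR adjusted p = 0.00096), and Plxna4, at -0.46.

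**Figure D2:**
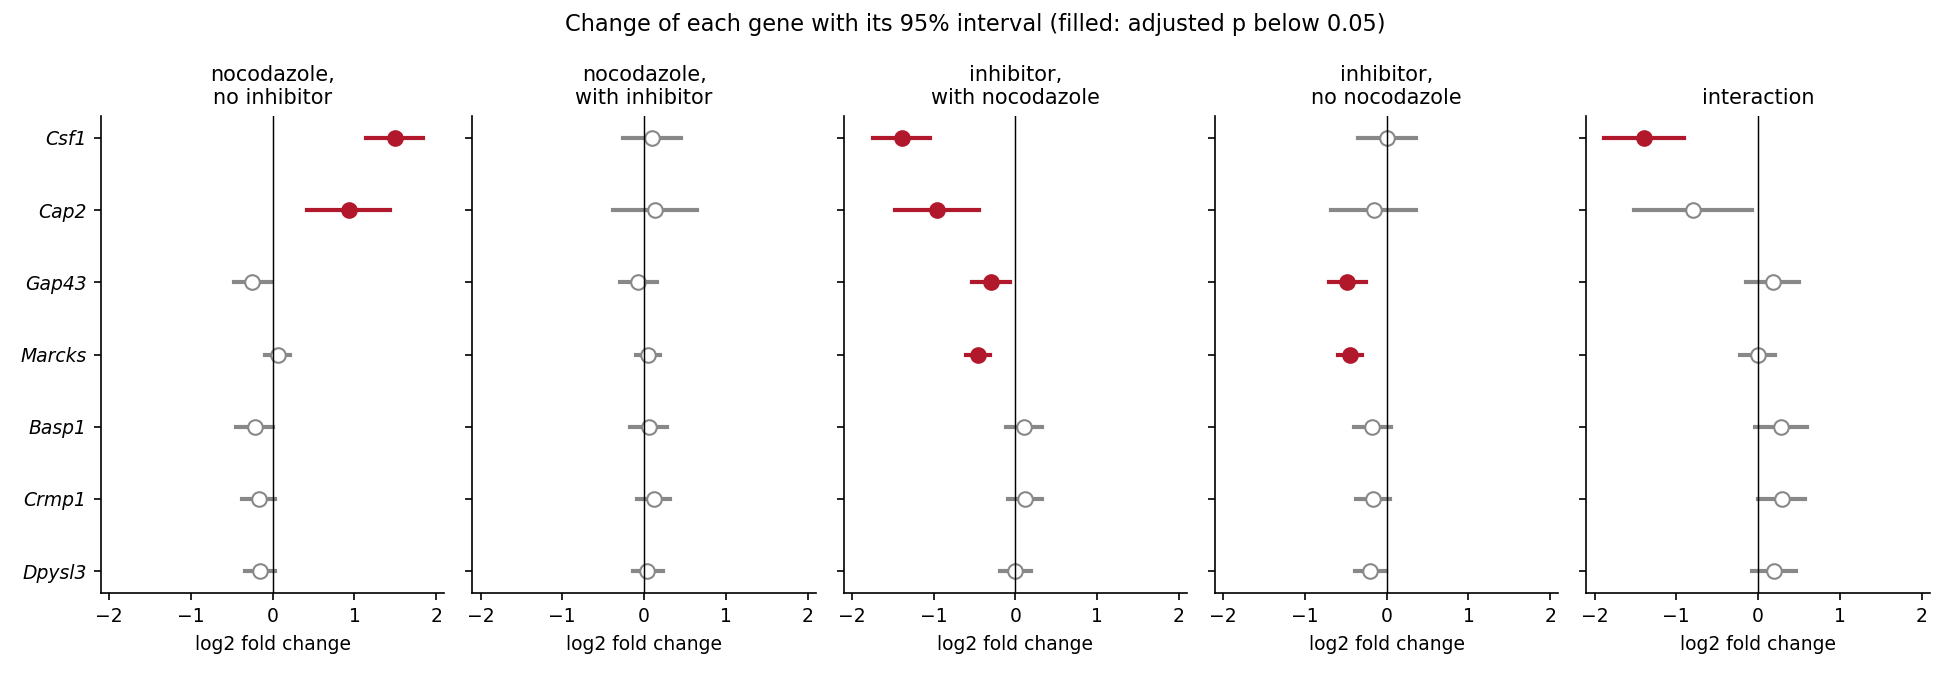
Log2 fold change (horizontal axis) of each gene in 5 comparisons, with its 95% interval as a line. Filled points passed edgeR's test at an adjusted p below 0.05. With nocodazole under the inhibitor no gene passed, while Csf1 passed at 1.49 with nocodazole alone.

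Counted over the 7 genes, nocodazole without inhibitor raised 2 and lowered none, where 37.5% of all genes were called. At an unadjusted p below 0.05 edgeR counted 1 gene lower, and DESeq2 and limma counted 2 each. After adjustment DESeq2 and limma called none lower. The inhibitor without nocodazole lowered 2 and raised none, where 7.24% of all genes were called lower and 5.78% higher. At an unadjusted p below 0.05 edgeR had 0 higher and 3 lower. With both agents against DMSO 2 were lower and none higher, where 16.7% of all genes were called (8.48% lower and 8.26% higher), and edgeR at an unadjusted p below 0.05 and the other tools gave that count too. The inhibitor in nocodazole-treated neurons lowered 4 and raised none in edgeR, DESeq2 and limma, and at an unadjusted p below 0.05, where 33.9% of all genes were called in either direction. With nocodazole under the inhibitor edgeR, DESeq2 and limma each called 0 of the 7, with 0 at an unadjusted p below 0.05, and edgeR called 0.0835% of all genes (0.0783% higher and 0.00522% lower). The median log2 change of the 7 was -0.15 with nocodazole against 0.01 over all genes, and -0.30 with the inhibitor in nocodazole-treated neurons against 0.00. Groups did not overlap for 3 of the 7 with nocodazole alone (36.9% of all genes) and for 3 of the 7 with inhibitor alone (21.7% of all genes). They did not overlap for 3 of the 7 with inhibitor in nocodazole-treated neurons (28.5% of all genes), 2 with both agents against DMSO (22.5%) and 0 with nocodazole under inhibitor (3.28%).

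**Figure D3:**
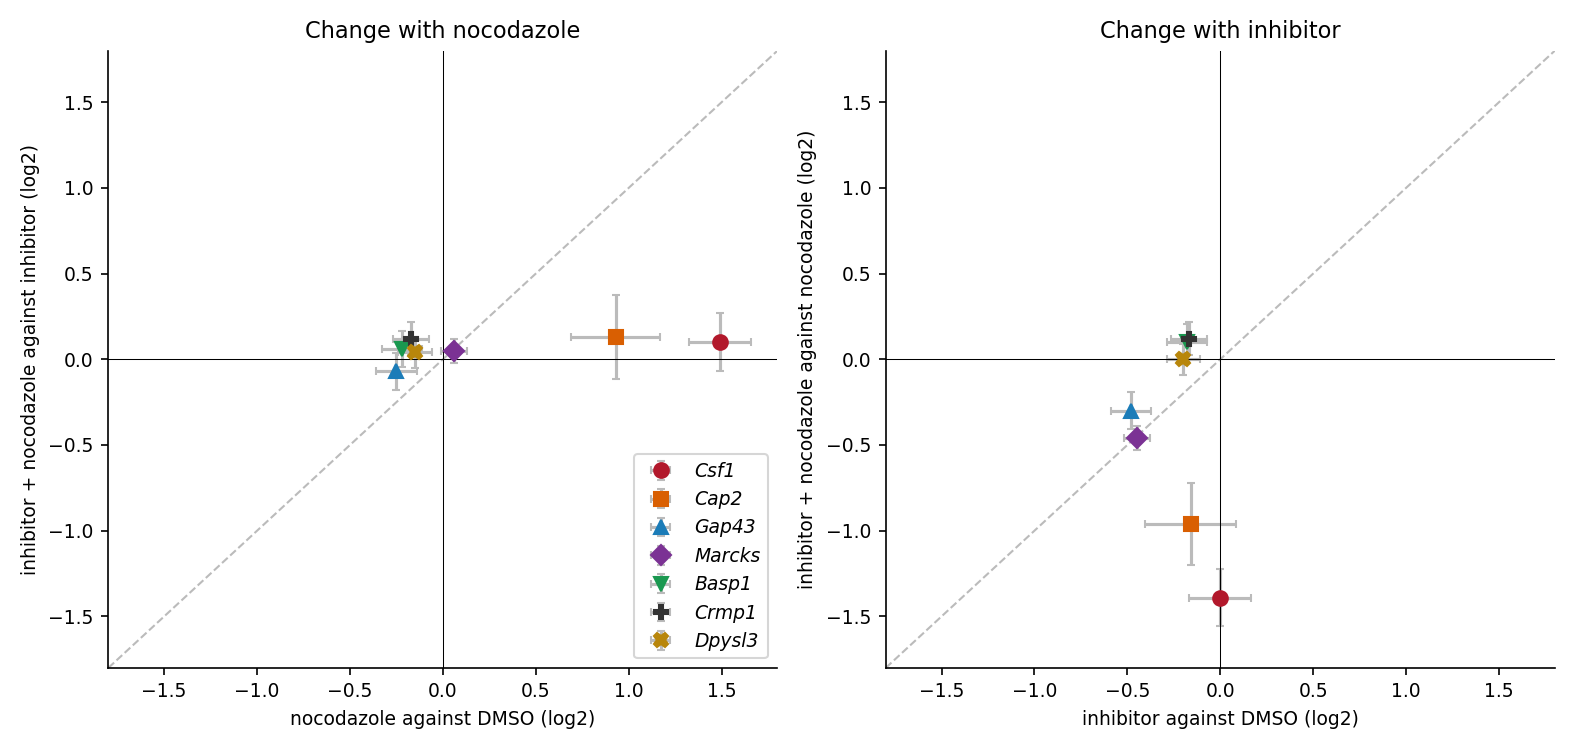
Left, the log2 change with nocodazole in the presence of inhibitor (vertical) against that in its absence (horizontal). Right, the log2 change with inhibitor in the presence of nocodazole (vertical) against that in its absence (horizontal). Bars are SE, the dashed line marks equal changes, and the 2 axes of a panel share no library. Marcks lay on the line at right (-0.46 and -0.45), while Csf1 had 0.10 against 1.49 at left.

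Cap2 stood among 23 genes of actin turnover, of which nocodazole raised 3, Cap2 included, and lowered 5, near the 18.6% and 19.0% of all genes. Ssh2, a phosphatase that activates the actin-severing protein cofilin, rose by 0.60 ± 0.0470 (edgeR adjusted p = 1.14e-07), and the coronin gene Coro1a had -0.66 ± 0.0734 (edgeR adjusted p = 4.14e-06). The inhibitor lowered 6 of the 23 and raised 2 in nocodazole-treated neurons (16.2% and 17.7% of all genes), with Ssh2 at -0.59 and Coro1c at -0.50. Without nocodazole it lowered 7 (7.24% of all genes), led by Limk1, the kinase that inactivates cofilin, at -0.58 ± 0.0731 (edgeR adjusted p = 0.000206). The list's median log2 change was then -0.16, against 0.03 over all genes.

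Of 33 genes of growth cone proteins, 32 were tested, and they include Gap43, Basp1, Marcks, Crmp1 and Dpysl3. Nocodazole lowered 11 and raised 2 (19.0% and 18.6% of all genes), with Gnai2, a G protein subunit gene, at -0.36 and the actin-bundling gene Fscn1 at -0.35 ± 0.0615 (edgeR adjusted p = 0.000347). Cyfip1 and the filament-elongating gene Vasp rose by 0.31 and 0.21. The inhibitor without nocodazole lowered 7 (7.24% of all genes) and raised 1 (5.78%), Cotl1, at 0.79 ± 0.214 (edgeR adjusted p = 0.0244), and the 2 largest decreases of the list above 10 CPM were those of Gap43 and Marcks. With nocodazole present it lowered 5 and raised 6, near the 16.2% and 17.7% of all genes. In a list of 35 axon injury and regeneration genes, which includes Csf1, Cap2 and Gap43, 26 were tested. Nocodazole raised 14 and lowered 4, where 18.6% of all genes were called higher and 19.0% lower, with a median log2 change of 0.49 against 0.01 over all genes. The inhibitor in nocodazole-treated neurons lowered 16 and raised 3, where 16.2% of all genes were called lower and 17.7% higher, with a median of -0.83 against 0.00. Csf1 and Cap2, which are among the genes counted, moved in these directions. Their changes were smaller than those of the transcription factor gene Atf3, at 5.38 with nocodazole and -5.67 with the inhibitor on top. Gap43 had -0.25 with nocodazole, which did not pass (edgeR adjusted p = 0.0846), and -0.30 with the inhibitor on top (edgeR adjusted p = 0.041).

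**Figure D4:**
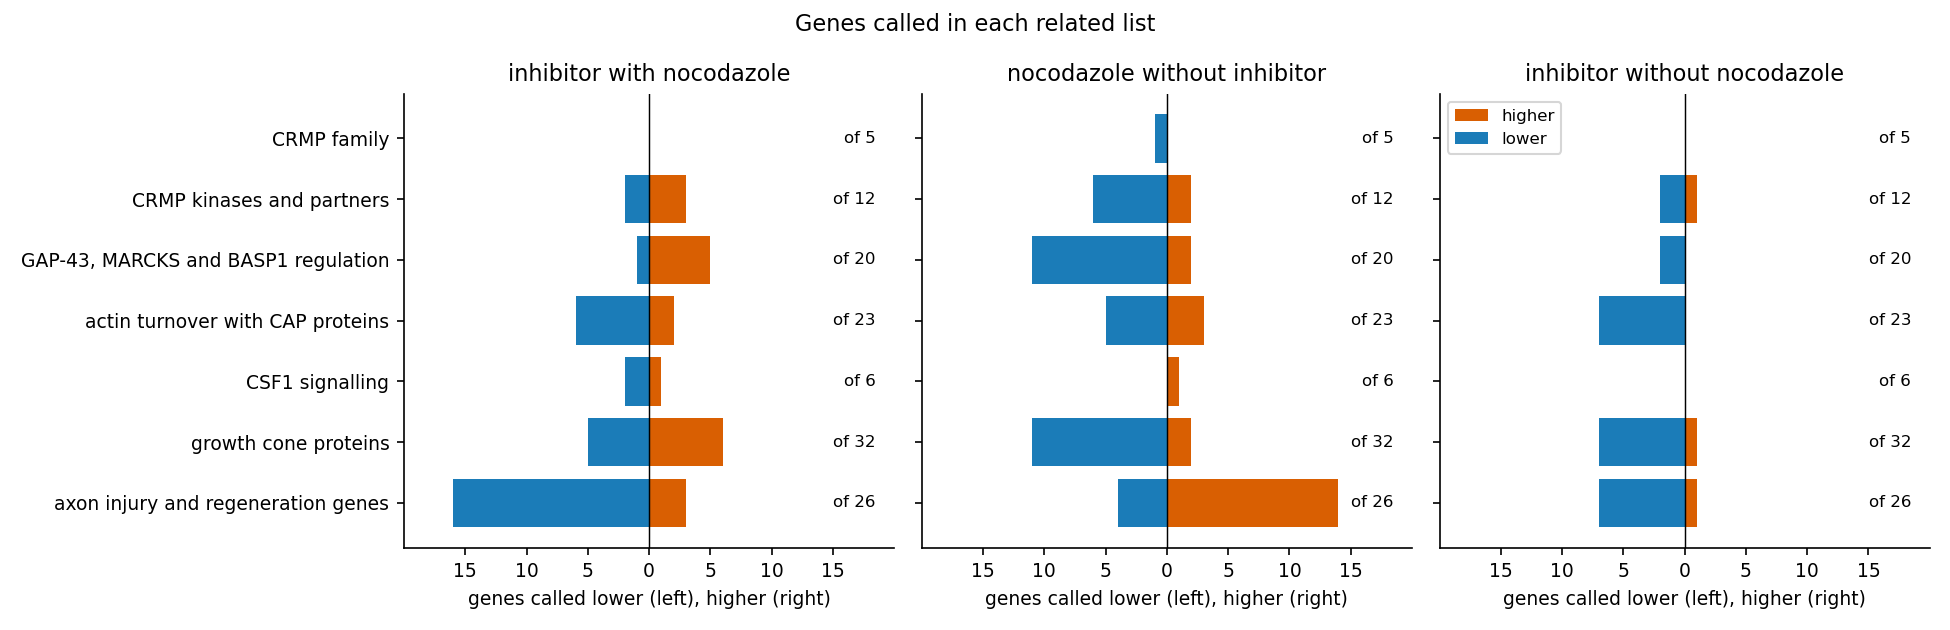
Number of genes called lower (bars to the left) and higher (bars to the right) by edgeR at an adjusted p below 0.05 in 7 lists of related genes, with the number tested at the right of each panel. Of the axon injury and regeneration genes, 14 were higher with nocodazole and 16 were lower when the inhibitor was present as well.

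The genes whose log2 CPM followed each member most closely over the 16 libraries were sought among 9236 other genes with a mean of at least 10 CPM, by Pearson r. The libraries share their groups and depth, so r is a description. For Csf1 they were Alms1 (r = 0.976), Klf12 (0.974) and Rnd3 (0.973). For Cap2 they were Tbc1d22a (0.953), Zdbf2 (0.952) and Plekho2 (0.950). Gap43 was followed by Npr2 (0.976), a natriuretic peptide receptor gene of sensory axons, and by Ccdc50 (0.966) and Nsmf (0.963). Marcks was followed by Zfp428 (0.971), Ppm1a (0.969) and Nosip (0.964), and Basp1 by Ctxn1 (0.969), 1110008P14Rik (0.965) and Tmem9 (0.964). Crmp1 was followed by Plpp1 (0.971) and Pcyt1b (0.964), and Dpysl3 by Dis3l (0.978), Rtn1 (0.976) and Copg1 (0.970).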

How the data were processed

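RNA was measured in 16 samples of cultured embryonic dorsal root ganglion neurons, in 4 groups of 4 taken from the sample titles. Per the labels' protocols, RNA was extracted with a ReliaPrep kit and depleted of ribosomal RNA with Kapa RiboErase. The authors deposited whole-number counts per Ensembl identifier, 1 column per sample. Per the submitters' processing notes, STAR and Salmon were used with GRCm39. Versions, the strand setting and the counting rules are not given in the sources used here, so the counts could be rounded estimates. Symbols came from GENCODE M21 by identifier (52080 of 55356 matched, 94.1%), as did exon lengths, taken as the union of a gene's exons on another build.

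Genes were tested with edgeR 4.0.16 (R 4.3.3), a quasi-likelihood model with 1 mean per group over all 16 libraries, trimmed-mean library sizes (factors 0.9595 to 1.064) and the default filterByExpr filter, which left 19156 genes. P-values were adjusted by Benjamini-Hochberg over all of them, and a gene was called below 0.05. SE and 95% intervals derive from the test. The procedure was tested on simulated data. The 24 pairs of replicates within groups differed by more than counting noise (chi-square per degree of freedom 7.52 to 45.9). Alternatives were DESeq2 1.42.0, limma 3.58.1 on log2 CPM with a prior count of 2, another scaling, other filters, fewer groups, a replicate block and leaving out each library. The 7 genes and the lists were chosen with earlier results of these data known. In lists of over 5 genes, the rule picked the 2 most raised and 2 most lowered called genes per comparison, with a mean of at least 10 CPM. Only some of the genes so picked are named here, and the choice among them followed no fixed rule. Cd68, Tyrobp and other markers were named after their values were seen. A gene that the rule for genes most alike in pattern also picked is not reported here.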

Additional observations from a re-analysis of the deposited data

Results flagged for a closer look

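Crmp1 in replicate 1 of the inhibitor plus nocodazole group, at 578 CPM, lay far below the other 3 replicates, by a gap larger than Dixon's limit for 4 samples. It was the 1 such case among 28 groups of values (7 genes in 4 groups), where chance flags about 1 in 20. The same library had the lowest Gap43, Basp1 and Dpysl3 and the highest Cap2 and Csf1 of its group, and a mitochondrial share of 1.71%.

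The nocodazole change of Csf1 differed between neurons with and without inhibitor, with an interaction of -1.40 ± 0.235 in log2 units (edgeR, adjusted p = 0.000846). All 4 nocodazole libraries were higher than all 4 DMSO libraries, while inhibitor plus nocodazole and inhibitor libraries overlapped.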

How the results depend on the processing

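The edgeR model of all 16 libraries called 11 of 42 values (7 genes in 6 comparisons). Of 371 values under other settings, 356 kept direction and side of the threshold. With the 2 groups alone, Gap43 passed with nocodazole (-0.23, edgeR adjusted p = 0.0491) and was lost with inhibitor in nocodazole-treated neurons (-0.30, 0.0506). With the sample number as a covariate, added after seeing the data, 1 gene in place of 2 was called with inhibitor alone, Gap43 being lost at -0.41, and the uncalled nocodazole changes under inhibitor of Basp1 and Dpysl3 turned to -0.04 and -0.01. Changes of Csf1 with inhibitor alone near 0 turned sign, to -0.01 with median-of-ratios scaling and in DESeq2, -0.02 with no filter, 0.00 with the 2 groups alone and -0.13 without the 5 libraries over 1.3% mitochondrial share (added after seeing the data). In that last fit the uncalled values of Marcks with nocodazole under inhibitor (-0.03), Crmp1 with both agents against DMSO (0.04) and the Gap43 interaction (-0.08) also turned sign, as did the Marcks interaction with no filter (0.02). The cause was not tested.

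Leaving out each library in turn, the members called numbered 2 to 4 with nocodazole, 2 with inhibitor, 0 with nocodazole under inhibitor, 3 to 4 with inhibitor in nocodazole-treated neurons, 2 with both agents against DMSO, and 1 to 4 in the interaction. The Csf1 change with nocodazole ranged from 1.36 to 1.63, that of Cap2 from 0.87 to 1.01, and the inhibitor change of Marcks without nocodazole from -0.53 to -0.41. Values near 0 that turned sign spanned -0.33 to 0.00 for Cap2 and -0.10 to 0.08 for Csf1 with inhibitor alone. With nocodazole under inhibitor they spanned -0.16 to 0.02 for Gap43, -0.18 to 0.30 for Cap2 and -0.01 to 0.13 for Dpysl3. They spanned -0.07 to 0.08 for Dpysl3 with inhibitor in nocodazole-treated neurons and -0.05 to 0.07 for the Marcks interaction. With both agents against DMSO they spanned -0.34 to 0.11 for Cap2 and -0.10 to 0.05 for Crmp1. With the replicate number as a block, Basp1 passed with nocodazole (-0.23, edgeR adjusted p = 0.0448), and no other call of the 7 genes changed. Of 24 pairs of libraries with the same number, 8 had deviations correlated above 0.1 (range -0.399 to 0.232). Pairs with other numbers ranged from -0.333 to 0.452. These correlations cannot show whether samples with the same number shared a culture, which the labels do not state. Over all genes, nocodazole under inhibitor called 16 in edgeR, 111 in DESeq2, 28 with no filter, 6 with the 2 groups alone, 5 with the block, 4 with the sample number and 55 without the 5 libraries. Leaving out 1 library, it called 88 without inhibitor plus nocodazole replicate 1 and as few as 3 without inhibitor replicate 3. Inhibitor alone called 2494, but 962 with the sample number and 1278 without the 5 libraries, 1242 and 1290 without inhibitor replicate 2 or 3, and 1523 and 1274 without DMSO replicate 2 or 4. Both agents against DMSO called 3207, but 2096 without DMSO replicate 4, and the interaction 3587 and 1801 with the sample number. Cap2 and Csf1, with at most 443 counts a library, are limited by depth more than the other 5 genes.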
